A study of Mus musculus with 27 samples.

Results

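The genes described here are 4 steroid receptors and 5 proteins that work with the estrogen receptor. They are the estrogen receptor Esr1, the progesterone receptor Pgr, the glucocorticoid receptor Nr3c1, the mineralocorticoid receptor Nr3c2, the cofactors Greb1 and Nrip1, and the coactivators Ncoa1, Ncoa2 and Ncoa3. They were found by name in the array annotation, which gave 22 probes for 9 genes among 41174 probes. Of these, 21 probes entered the tests of 32901 probes, which cover 21866 genes, and 20 were well above background on all 27 arrays. The samples were whole uteri of female mice aged 8 weeks whose ovaries had been removed, so all groups lacked their main source of estradiol. Each mouse received 17β-estradiol (E2) at 40.0 µg per kg by intraperitoneal injection in 0.1 ml saline holding 0.25% ethanol, or the same saline and ethanol alone (vehicle). Tissue was taken 2 or 24 h later, which is stated for E2 but for no vehicle sample. The 9 groups of 3 arrays were F1 hybrids of C57BL/6 and C3H/HeJ mice (F1), C3H/HeJ mice (C3H) and C57BL/6 mice (B6), each given E2 for 2 h, E2 for 24 h or vehicle. Tissue came from 3 animals per group. No label links arrays with animals or says whether tissue was mixed, so the p-values describe the spread among these samples, which may be technical.

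Steroid receptors are transcription factors that are held by chaperones until a hormone binds, after which they bind DNA as dimers and recruit cofactors. The p160 coactivators Ncoa1, Ncoa2 and Ncoa3 bring histone acetyltransferases to the hormone-bound receptor, and Nrip1 brings corepressors to the same surface. In the uterus Esr1 mediates the growth response of epithelium to E2, partly through stroma, and Pgr and Greb1 are classical E2-responsive genes in estrogen target tissues.

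Several genes had more than 1 probe, and the probes did not always give the same response, so the places they read are shown first. Each was designed with 60 bases, of which the 30 bases nearest the 5′ end of the sense strand are printed, except for 1 Pgr probe printed whole. Coordinates are those of the mm7 build given by the scanner files, and which exon or untranslated region each lies in was not analysed here. The pairs for Esr1 and Pgr are shown because their probes differed in response, the 3 for Nrip1 because their response was ordered along the gene, and Greb1 because it had, with the upstream Pgr probe, the largest changes at 2 h.
Esr1 downstream probe A_52_P237077, chr10:5343271-5343300, minus strand: ttttttgtagacgtttcaaactaccgtgtc
Esr1 upstream probe A_51_P474658, chr10:5345261-5345290, minus strand: tccccgaaaggttctgagaatccctgcaac
Pgr downstream probe A_51_P213476, chr9:8987004-8987063, plus strand: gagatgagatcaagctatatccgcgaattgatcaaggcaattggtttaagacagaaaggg
Pgr upstream probe A_52_P413840, chr9:8973735-8973764, plus strand: tgtcatagtagcattgataaaataactctg
Greb1 probe A_51_P127695, chr12:16726545-16726574, minus strand: ctacagagcaatattccaaaggaacatttt
Nrip1 most downstream probe A_52_P413584, chr16:76285559-76285588, minus strand: acagttgcaagtctggacaaatgtataaaa
Nrip1 middle probe A_51_P152747, chr16:76288636-76288665, minus strand: agagtctctcacaggttacagtcaaagaag
Nrip1 most upstream probe A_52_P609319, chr16:76349099-76349128, minus strand: aatctagtgtgcatctgttaaggtgacagt
The upstream Esr1 probe lies 1990 bases upstream of the other along the gene, and the upstream Pgr probe 13269 bases upstream. For Nrip1 the distances from the most downstream probe are 3077 and 63540 bases. The 60 bases of 1 Ncoa2 and 1 Ncoa3 probe span 1641 and 746 bases of the genome, so these 2 cross a splice junction.

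All values below are log2 levels of processed intensity relative to the 75th percentile of the same array, which is 0, and a change is a difference of such levels. That percentile was 1147.58 to 1483.04 intensity units, and 72.4% to 79.4% of probes were well above background on an array. Markers of uterine epithelium (10 of 10), endometrial stroma (9 of 9) and myometrium (7 of 7) were well above background on every array, which bears out the tissue label. Markers of ovary were low, with mean log2 levels of -4.09 to -3.67 at 2 h and -4.29 to -3.76 at 24 h, against -3.69 to -3.33 with vehicle, and 5 of their 8 were well above background on all arrays. Leukocyte markers ranged from -1.67 to 0.40, adipose markers from -3.66 to 1.69 and squamous epithelium markers from -3.18 to -1.18 among the 9 vehicle arrays, so these markers varied between arrays of 1 treatment. In whole tissue, fewer cells of a type and less RNA per cell cannot be told apart.

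E2 changed most of these probes at both times, as it did most of all tested probes. At 2 h in F1 uteri, 9 of the 21 probes rose and 7 fell (limma, adjusted p under 0.05), against 25.9% and 33.0% of all 32901 tested probes. For C3H the counts were 8 higher and 7 lower, against 26.0% and 33.8% of all probes. For B6 they were 9 and 6, against 24.8% and 30.9%. At 24 h in F1, 7 rose and 11 fell, against 31.4% and 37.6% of all probes. In C3H 6 were higher and 11 lower at 24 h, against 27.1% and 39.7%, and in B6 8 were higher and 11 lower, against 30.3% and 38.0%. The median change of the 21 probes at 24 h was -0.45 in F1, -0.37 in C3H and -0.22 in B6, against -0.05, -0.16 and -0.08 over all probes. The 9 E2 arrays did not overlap the 9 vehicle arrays for 14 of 21 probes at 2 h, against 34.5% of all probes, and for 12 of 21 at 24 h, against 41.0%. These shares are not counts of independent genes, since probes of a gene read the same RNA. Centring arrays on their median instead of the 75th percentile moved the median change of all probes at 24 h to 0.15 in F1, 0.03 in C3H and 0.16 in B6. The calls then split 9 to 9 (higher to lower) at 24 h in C3H, 9 to 6 at 24 h in B6 and 10 to 5 at 2 h in F1, and without scaling 12 to 5 at 2 h in F1. At 2 h in F1 the median change of all probes was 0.07 with median centring and 0.17 without scaling. No share of all probes called is given under these settings, so these splits cannot be set against one.

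**Figure D1:**
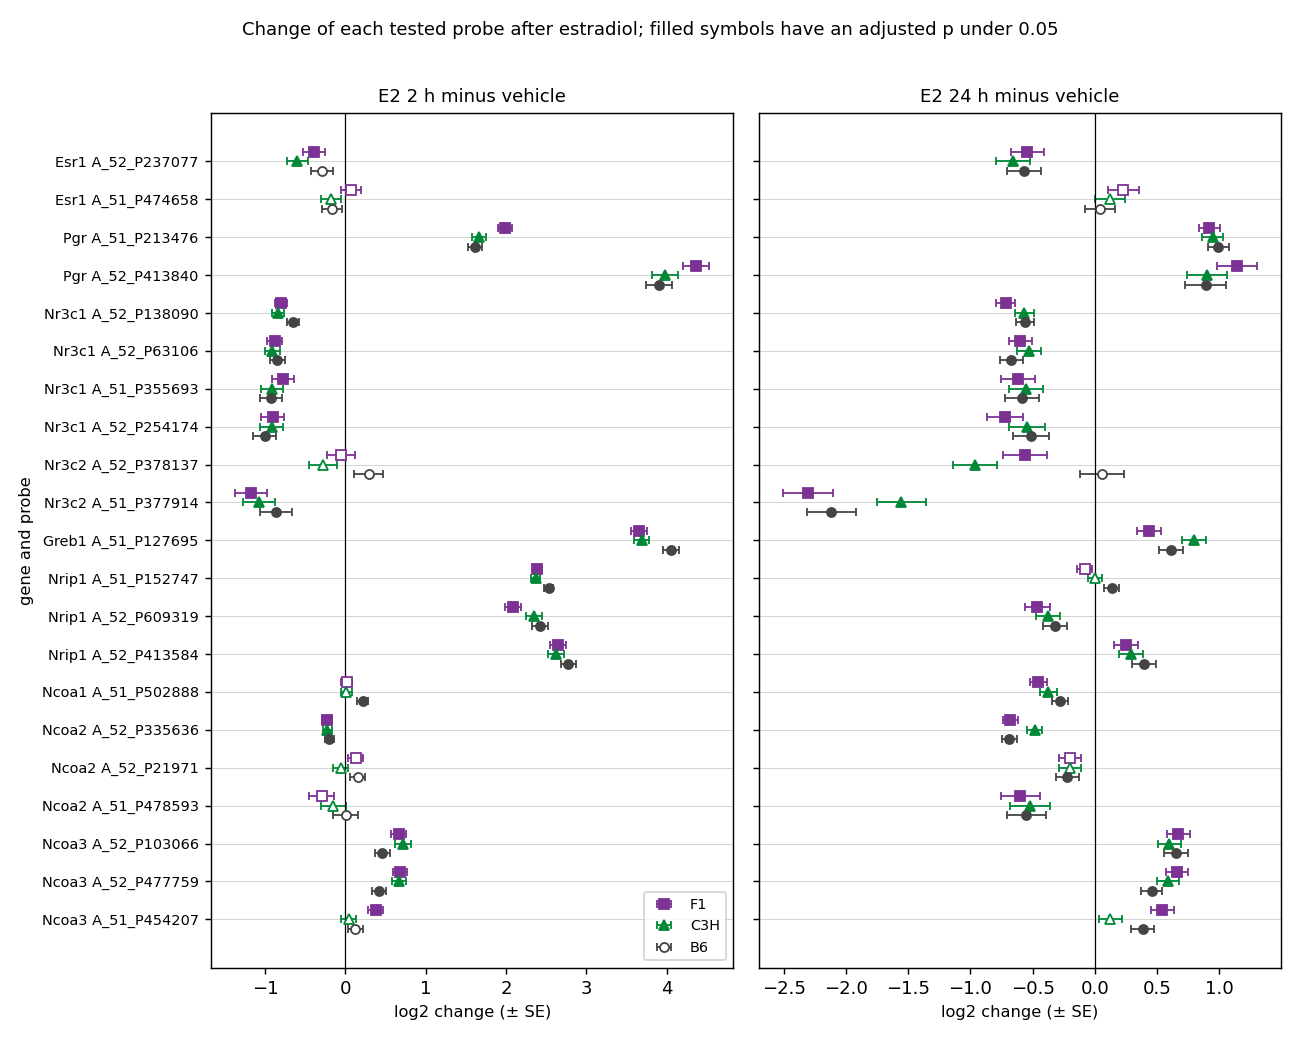
Log2 change with E2 minus vehicle for each tested probe at 2 h (left) and 24 h (right), with its standard error, on horizontal axes of different range. Squares are F1, triangles C3H and circles B6, filled where the adjusted p was under 0.05. At 2 h the probes of Greb1, Nrip1 and Pgr lie far to the right of 0 and those of Nr3c1 to the left. At 24 h no rise is above 1.14, and Nr3c2 A_51_P377914 lies farthest to the left, reaching -2.31.

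Esr1 encodes the receptor through which E2 acts in the uterus, and its 2 probes are described apart because they disagree. The downstream probe, printed on the array in 10 copies, fell in F1 and C3H at 2 h and in all 3 strains at 24 h. The upstream probe passed the test in no strain at either time under the scaling used here. In F1 uteri the downstream Esr1 probe read 3.50, 3.81 and 3.76 with vehicle, 3.53, 3.31 and 3.06 at 2 h and 3.13, 3.26 and 3.05 at 24 h. In C3H it read 3.80, 3.89 and 3.78 with vehicle, 3.28, 3.24 and 3.17 at 2 h and 3.08, 3.17 and 3.24 at 24 h. In B6 it read 3.64, 3.78 and 3.81 with vehicle, 3.29, 3.67 and 3.42 at 2 h and 3.21, 2.83 and 3.48 at 24 h. At 24 h every E2 array lay below every vehicle array, whereas at 2 h E2 and vehicle overlapped in F1 and B6 and were apart in C3H. The change was -0.39 in F1, -0.60 in C3H and -0.29 in B6 at 2 h (SE 0.135), with adjusted p of 0.0179, 0.000735 and 0.0789. At 24 h it was -0.54 in F1, -0.66 in C3H and -0.57 in B6, with adjusted p from 0.000239 to 0.00137. The call in F1 at 2 h was lost without the third F1 E2 2 h array (-0.27, adjusted p = 0.121), and also without the second (adjusted p = 0.0751) or the third (adjusted p = 0.0587) F1 vehicle array. It was also lost with median centring (-0.26, adjusted p = 0.0791) and without scaling (-0.16, adjusted p = 0.292). The change in B6 at 2 h passed with the slide as a block (-0.46, adjusted p = 0.0379) and without the second B6 E2 2 h array (-0.39, adjusted p = 0.031). In order of level, the 3 vehicle groups stood highest, then the groups at 2 h, then those at 24 h, and each group overlapped its neighbour in that order.

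The upstream Esr1 probe was dim but well above background on all arrays. It read -2.31, -1.89 and -1.87 with vehicle, -2.03, -1.91 and -1.92 at 2 h and -1.77, -1.78 and -1.83 at 24 h in F1. In C3H the same probe read -2.19, -2.10 and -2.19 with vehicle, -2.27, -2.27 and -2.48 at 2 h and -2.05, -2.03 and -2.03 at 24 h. B6 uteri gave -2.11, -1.98 and -1.92 with vehicle, -2.22, -2.02 and -2.27 at 2 h and -2.00, -2.25 and -1.63 at 24 h. The first F1 vehicle array stood below the other 2, and E2 and vehicle overlapped over the strains at both times. Within strains, E2 arrays at 24 h lay above vehicle without overlap in F1 and C3H, and at 2 h they lay below it without overlap in C3H. The change at 24 h was 0.23 in F1, 0.12 in C3H and 0.04 in B6 (SE 0.123), with 95% intervals of -0.03 to 0.49, -0.14 to 0.38 and -0.22 to 0.30, and none passed. Without scaling F1 passed as higher, by 0.30 at 2 h (adjusted p = 0.0368) and 0.40 at 24 h (adjusted p = 0.00581). With median centring all 3 passed as higher at 24 h (0.43 in F1, 0.31 in C3H and 0.28 in B6, adjusted p 0.00218, 0.022 and 0.035), so its direction rests on the scaling. The response of the downstream probe minus that of the upstream one averaged -0.33 at 2 h and -0.72 at 24 h over strains, a difference that subtracting a constant from each array cannot change. The levels of the pair had r = 0.074 over the 27 arrays, which share their groups. Which Esr1 transcripts each probe reads was not analysed here.

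Pgr, the receptor for progesterone, rose on both probes in all 3 strains and at both times, more at 2 h than at 24 h. The downstream probe read -1.88, -1.59 and -1.59 with vehicle, 0.19, 0.37 and 0.34 at 2 h and -0.76, -0.70 and -0.85 at 24 h in F1 uteri. C3H uteri gave -1.68, -1.63 and -1.71 with vehicle, -0.06, -0.01 and 0.04 at 2 h and -0.65, -0.89 and -0.63 at 24 h on it. B6 gave -1.88, -1.83 and -1.65 with vehicle, -0.13, -0.12 and -0.26 at 2 h and -0.76, -0.82 and -0.80 at 24 h. All E2 arrays lay above all vehicle arrays, and within each strain all arrays at 2 h lay above all at 24 h. At 2 h the downstream probe rose 3.97-fold in F1, 3.17-fold in C3H and 3.06-fold in B6, with changes of 1.99 in F1, 1.66 in C3H and 1.61 in B6 (SE 0.0846, adjusted p from 4.98e-14 to 1.48e-12). The F1 arrays at 2 h stood above those of C3H and B6, although the response did not pass the test for a strain difference. At 24 h the change on the downstream probe was 0.92 in F1, 0.95 in C3H and 0.99 in B6 (adjusted p from 1.81e-09 to 6.26e-09).

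The upstream Pgr probe was dim and read -6.53, -5.96 and -6.34 with vehicle, -2.00, -1.81 and -1.91 at 2 h and -5.33, -4.88 and -5.21 at 24 h in F1. It read -5.99, -5.89 and -6.09 with vehicle, -2.15, -2.04 and -1.84 at 2 h and -4.99, -5.33 and -4.95 at 24 h in C3H. In B6 uteri it read -6.64, -6.12 and -5.99 with vehicle, -2.22, -2.28 and -2.53 at 2 h and -5.36, -5.42 and -5.30 at 24 h. The groups were again apart without overlap. It rose 20.7-fold in F1, 15.8-fold in C3H and 15-fold in B6 at 2 h, or 4.37 in F1, 3.98 in C3H and 3.91 in B6 as log2 change (SE 0.162, adjusted p from 6.74e-15 to 3.82e-14). At 24 h it had changed by 1.14 in F1, 0.90 in C3H and 0.89 in B6 (adjusted p from 2.85e-06 to 5.63e-05). The response at 2 h was smaller on the downstream probe by -2.33 on the log2 scale averaged over strains (exact permutation of treatment within strain, p = 0.00025, the smallest the 8000 relabellings allow). At 24 h the responses differed by -0.02 (exact permutation p = 0.761). This pair is 1 of 36 such comparisons of probes of 1 gene, and these p-values are unadjusted. The size on the dim probe rests on the background correction, since with the normexp correction its change at 2 h was 2.35 in F1, 2.22 in C3H and 2.01 in B6, the difference between probes was -0.58, and at 24 h the difference turned to 0.59. The levels of the pair had r = 0.935 over 27 arrays.

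**Figure D2:**
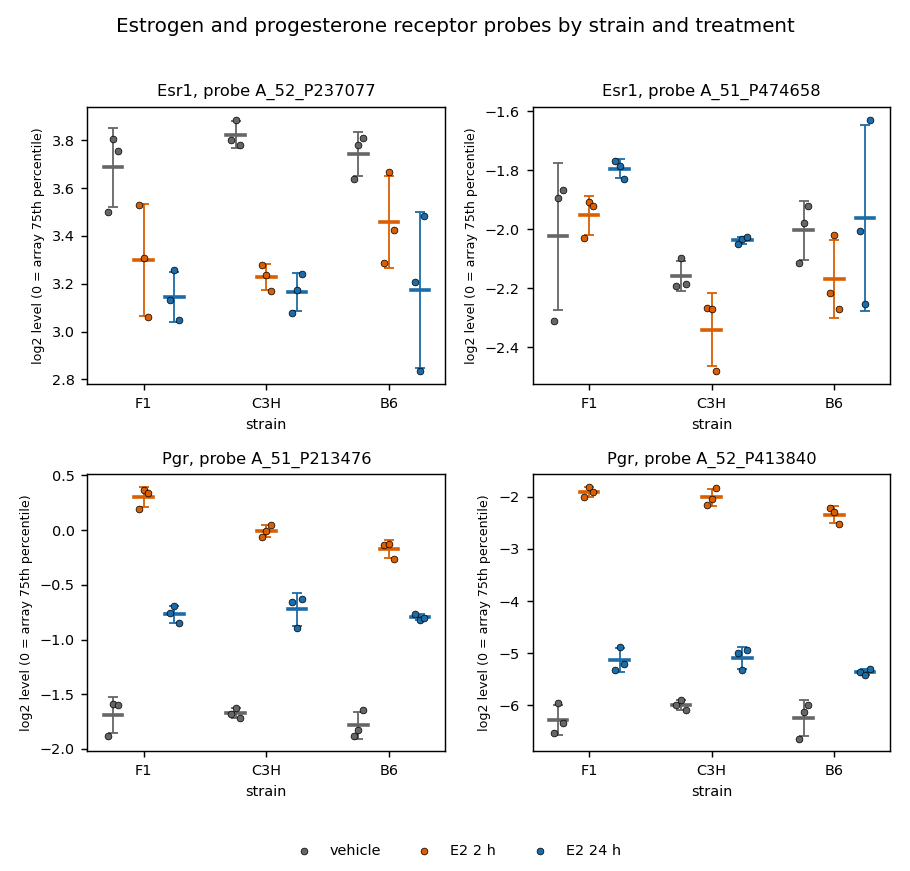
Log2 level (0 is the 75th percentile of the array) of each Esr1 and Pgr probe in F1, C3H and B6 uteri, with vehicle in grey, E2 2 h in orange and E2 24 h in blue. Each point is 1 array, the bar is the mean of 3 and the error bar the SD. Both Pgr probes are highest at 2 h in every strain, the downstream Esr1 probe is lowest at 24 h, and the upstream Esr1 probe lies above vehicle at 24 h in F1 and C3H and overlaps it in B6.

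Greb1, which binds chromatin together with the estrogen receptor, had, with the upstream Pgr probe, the largest changes of the 9 genes at 2 h. In F1 its probe read -0.96, -0.84 and -0.86 with vehicle, 2.81, 2.78 and 2.71 at 2 h and -0.50, -0.41 and -0.44 at 24 h. Greb1 in C3H uteri read -0.72, -0.70 and -0.95 with vehicle, 2.77, 2.90 and 3.02 at 2 h and 0.06, -0.07 and 0.03 at 24 h. Greb1 in B6 uteri read -1.58, -1.21 and -1.37 with vehicle, 2.65, 2.57 and 2.77 at 2 h and -0.64, -0.72 and -0.98 at 24 h. At 2 h the 9 E2 arrays stood far above the 9 vehicle arrays, and at 24 h E2 stayed above vehicle within each strain while the ranges over strains overlapped. The rise at 2 h was 12.6-fold in F1, 12.9-fold in C3H and 16.6-fold in B6, or 3.65 in F1, 3.69 in C3H and 4.05 in B6 (SE 0.0972, adjusted p from 1.01e-17 to 3.93e-17). At 24 h Greb1 was still higher, by 0.44 in F1, 0.80 in C3H and 0.61 in B6 (adjusted p from 4.65e-07 to 0.000477). In order of level the groups at 2 h came first and overlapped each other, followed by C3H, F1 and B6 at 24 h, which did not overlap, and B6 with vehicle was lowest and apart from the rest.

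Nrip1 encodes a corepressor that binds hormone-occupied receptors, and all 3 of its probes rose at 2 h in all 3 strains. The middle probe read 1.58, 1.56 and 1.66 with vehicle, 4.00, 3.99 and 3.98 at 2 h and 1.50, 1.59 and 1.46 at 24 h in F1. For C3H it gave 1.55, 1.58 and 1.52 with vehicle, 3.85, 3.96 and 3.95 at 2 h and 1.58, 1.51 and 1.57 at 24 h. For B6 it gave 1.59, 1.64 and 1.63 with vehicle, 4.12, 4.25 and 4.08 at 2 h and 1.79, 1.64 and 1.85 at 24 h. Arrays at 2 h lay above all others, and at 24 h they overlapped with vehicle in each strain. The change at 2 h was 2.39 in F1, 2.37 in C3H and 2.53 in B6 on the middle probe (SE 0.0583, 5.24-fold in F1, 5.16-fold in C3H and 5.77-fold in B6), 2.65 in F1, 2.62 in C3H and 2.78 in B6 on the most downstream and 2.09 in F1, 2.35 in C3H and 2.42 in B6 on the most upstream (adjusted p from 3.04e-14 to 2.42e-13 on the last). The order from the most downstream to the most upstream probe, high to low, held in every strain at both times. In C3H at 2 h the middle probe was above the most upstream by 0.02. At 24 h the 3 probes parted. The most downstream was higher by 0.25 in F1, 0.29 in C3H and 0.39 in B6, all called, although the call in F1 was lost without 1 of 3 arrays, the second F1 E2 24 h array (adjusted p = 0.347) or the first (adjusted p = 0.113) or the third (adjusted p = 0.0577) F1 vehicle array. With the slide as a block the most downstream lost its call in B6 (0.30, adjusted p = 0.229). The most upstream fell by 0.46 in F1, 0.38 in C3H and 0.32 in B6 (the call in B6 had adjusted p = 0.0557 without the second B6 E2 24 h array). The B6 call on the most upstream was also lost with the slide as a block (adjusted p = 0.181). Its C3H call was lost without scaling (-0.25, adjusted p = 0.0513). The middle one changed by -0.08 in F1, 0.00 in C3H and 0.14 in B6, where only B6 passed (adjusted p = 0.0452), a call lost without any 1 of 5 of its 6 arrays and turned in sign to -0.02 by quantile normalization.

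The most upstream Nrip1 probe read 0.52, 0.73 and 0.44 in F1 at 24 h, against 1.17, 0.95 and 0.94 with vehicle. It read 0.47, 0.34 and 0.63 in C3H at 24 h and 0.90, 0.78 and 0.88 with vehicle, and 0.72, 0.50 and 0.79 in B6 at 24 h and 0.95, 0.99 and 1.03 with vehicle. E2 lay below vehicle without overlap within every strain. The response of the most upstream probe minus that of the most downstream was -0.39 at 2 h and -0.69 at 24 h averaged over strains (exact permutation p = 0.00025 for each). The middle minus the most upstream probe gave 0.14 at 2 h (exact permutation p = 0.01) and 0.40 at 24 h (exact permutation p = 0.00025). By strain the difference at 2 h was 0.30 in F1, 0.02 in C3H and 0.11 in B6. After quantile normalization its average at 2 h was 0.11 (exact permutation p = 0.05525). The 3 Nrip1 probes nevertheless tracked each other across the 27 arrays, with r of 0.965 to 0.991.

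**Figure D3:**
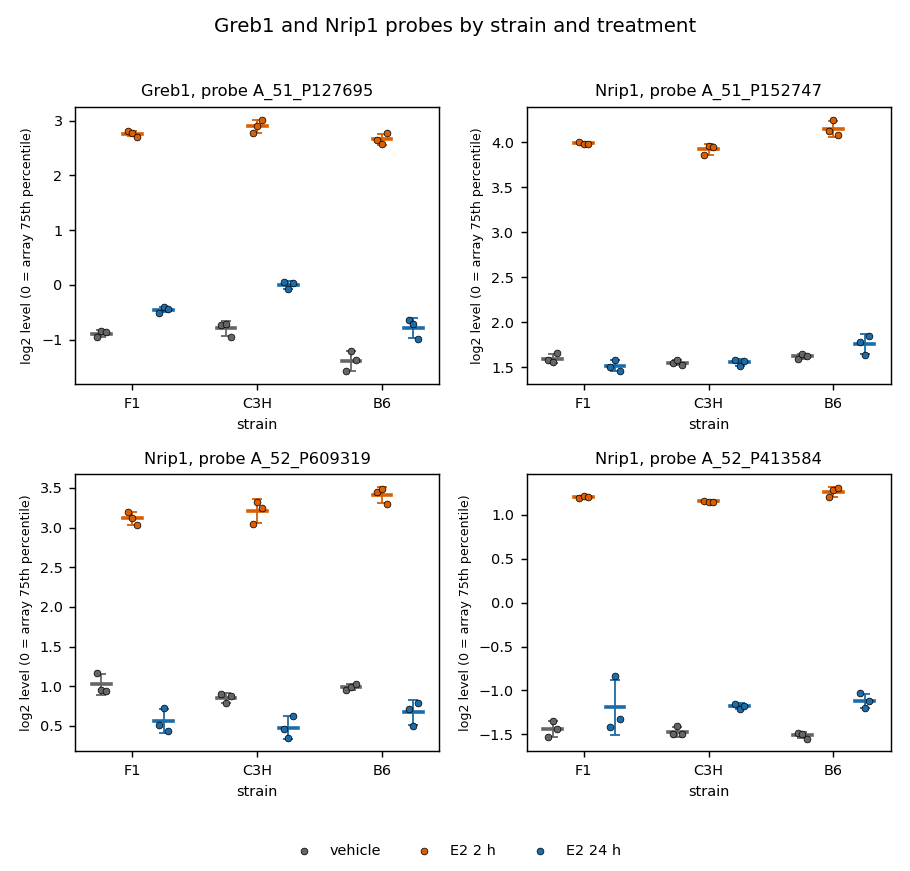
Log2 level (0 is the 75th percentile of the array) of the Greb1 probe and the 3 Nrip1 probes in F1, C3H and B6 uteri, with vehicle in grey, E2 2 h in orange and E2 24 h in blue. Points are single arrays, bars means of 3 and error bars SD. Every probe peaks at 2 h, and at 24 h the Nrip1 probes are back within 0.46 of their vehicle level.

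Because Greb1, Pgr and Nrip1 rose together at 2 h, their promoters are shown, as the 250 bases before the RefSeq start site on GRCm38.p6, a different build from that of the probes. Capitals mark the estrogen response element half-site AGGTCA (read as TGACCT on the printed strand) in Greb1 and the GC box GGGCGG, which Sp1 binds, in Pgr and Nrip1.
Greb1 promoter, chr12:16800887-16801136, minus strand: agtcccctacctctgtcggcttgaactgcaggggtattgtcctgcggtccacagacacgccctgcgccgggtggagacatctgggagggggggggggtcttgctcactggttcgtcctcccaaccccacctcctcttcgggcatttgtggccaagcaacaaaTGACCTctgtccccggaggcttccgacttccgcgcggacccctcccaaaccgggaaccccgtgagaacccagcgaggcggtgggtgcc
Pgr promoter, chr9:8899583-8899832, plus strand: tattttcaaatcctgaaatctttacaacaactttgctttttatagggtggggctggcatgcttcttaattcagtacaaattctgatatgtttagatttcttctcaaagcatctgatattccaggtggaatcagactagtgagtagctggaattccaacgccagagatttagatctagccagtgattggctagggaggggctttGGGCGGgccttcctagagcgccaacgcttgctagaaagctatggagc
Nrip1 promoter, chr16:76373050-76373299, minus strand: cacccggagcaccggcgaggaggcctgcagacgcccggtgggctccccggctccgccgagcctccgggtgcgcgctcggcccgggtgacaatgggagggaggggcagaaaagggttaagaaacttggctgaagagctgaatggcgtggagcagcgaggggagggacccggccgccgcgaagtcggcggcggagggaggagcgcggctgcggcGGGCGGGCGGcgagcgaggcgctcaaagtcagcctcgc
The half-site lies 88 bases before the start site of Greb1, and the GC boxes lie 47 bases before it in Pgr and 38 and 34 bases before it, overlapping, in Nrip1. Greb1 and Nrip1 each had another window, not printed, that held none of the motifs searched. For both genes the window printed is the one with a match. In windows of 300 bases at 32851 mouse start sites, searched on both strands, AGGTCA occurred in 16.3%, GGGCGG in 35.7%, the progesterone and glucocorticoid half-site AGAACA in 19.0% and the full palindromic estrogen response element in 0.07%. No full palindrome lay in the 9 windows found for Esr1, Pgr, Nr3c2, Greb1, Nrip1 and Ncoa1, 1 second window each for Esr1, Greb1 and Nrip1 included. Ncoa1 held 7 GC boxes and, after its start site, 1 AGAACA, and Nr3c2 3 GC boxes. A match describes the letters in these windows only.

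Nr3c1, the glucocorticoid receptor, fell on all 4 of its probes, in all 3 strains and at both times. Its brightest probe read 2.03, 1.92 and 1.95 with vehicle, 1.32, 1.00 and 1.17 at 2 h and 1.20, 1.30 and 1.25 at 24 h in F1. In C3H this Nr3c1 probe read 2.06, 2.03 and 2.10 with vehicle, 1.37, 1.13 and 1.20 at 2 h and 1.60, 1.39 and 1.51 at 24 h. In B6 this Nr3c1 probe read 1.96, 1.94 and 1.93 with vehicle, 1.25, 1.37 and 1.28 at 2 h and 1.34, 1.43 and 1.37 at 24 h. No E2 array reached the lowest vehicle array on any of the 4 probes. The change at 2 h on this probe was -0.80 in F1, -0.83 in C3H and -0.65 in B6 (SE 0.0737, adjusted p from 4.36e-09 to 2.05e-07), and at 24 h -0.72 in F1, -0.57 in C3H and -0.56 in B6 (adjusted p from 3.26e-08 to 1.13e-06). Over the 4 probes the changes ran from -1.0 to -0.65 at 2 h and from -0.72 to -0.51 at 24 h. The 4 probes, which lie within 3564 bases of each other, had r of 0.893 to 0.970 between their levels over 27 arrays. Endometrial stroma markers also moved, with 8 of 9 lower in all 3 strains at 2 h and mean levels of 2.57 to 3.03, against 3.71 to 4.03 with vehicle. At 24 h the stroma mean was 4.08 to 4.30, above vehicle, while the median change of its 9 markers was -0.30 in F1, -0.32 in C3H and -0.13 in B6. Their part in the Nr3c1 change was not tested.

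Nr3c2, the mineralocorticoid receptor, was dim, and its 3 probes gave different pictures. Probe A_51_P377914 read -5.66, -5.49 and -5.30 with vehicle, -6.40, -6.91 and -6.65 at 2 h and -8.10, -7.89 and -7.38 at 24 h in F1. C3H mice gave -5.54, -5.46 and -5.67 with vehicle, -6.28, -6.66 and -6.94 at 2 h and -7.06, -7.37 and -6.89 at 24 h on that probe. B6 mice gave -5.53, -5.26 and -5.44 with vehicle, -6.39, -6.20 and -6.25 at 2 h and -7.42, -7.21 and -7.95 at 24 h on it. Every vehicle array lay above every E2 array. It fell at 2 h by 1.17 in F1, 1.07 in C3H and 0.86 in B6 (SE 0.2, adjusted p from 3.58e-05 to 0.000968) and at 24 h by 2.31 in F1, 1.55 in C3H and 2.12 in B6 (adjusted p from 2.73e-09 to 1e-06). At 24 h it was well above background on 0 of 3 F1, 1 of 3 C3H and 0 of 3 B6 arrays, and at 2 h on 1 of 3 in F1, so the F1 and B6 levels at 24 h have only an upper bound. Taking the lowest signal well above background on each array, it was at least 2.24-fold lower in F1 and at least 2.75-fold lower in B6. Its sizes rest on the background correction, as normexp gave -0.53 in F1, -0.43 in C3H and -0.40 in B6 at 24 h, still all called. Probe A_52_P264543 was well above background on 5 of 27 arrays, all vehicle, and was not tested.

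Probe A_52_P378137, 598 bases upstream of the most downstream Nr3c2 probe, did not pass at 2 h in any strain (-0.06 in F1, -0.28 in C3H and 0.29 in B6, SE 0.176). In F1 its levels were -4.62, -4.48 and -4.43 with vehicle, -4.54, -4.58 and -4.59 at 2 h and -4.96, -5.29 and -4.98 at 24 h. The C3H levels were -3.85, -3.91 and -3.86 with vehicle, -4.10, -4.02 and -4.35 at 2 h and -4.27, -4.99 and -5.25 at 24 h. The B6 levels were -4.12, -4.02 and -4.08 with vehicle, -3.80, -3.73 and -3.83 at 2 h and -4.29, -4.11 and -3.65 at 24 h. F1 and C3H arrays at 24 h lay below their vehicle arrays, while those of B6 lay on both sides. At 24 h it fell in F1 by 0.56 (adjusted p = 0.00779) and in C3H by 0.96 (adjusted p = 7.49e-05), and in B6 the change was 0.06 (adjusted p = 0.786). The F1 call at 24 h was lost with median centring (-0.36, adjusted p = 0.0601). Its response minus that of A_51_P377914 was 1.02 at 2 h averaged over strains (exact permutation p = 0.00025), where A_51_P377914 was well above background on 1 of 3 F1 arrays. With the normexp correction this difference was 0.29 at 2 h, so its size rests on the background correction. At 24 h no size is given for this difference, since A_51_P377914 has only an upper bound there in F1 and B6.

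**Figure D4:**
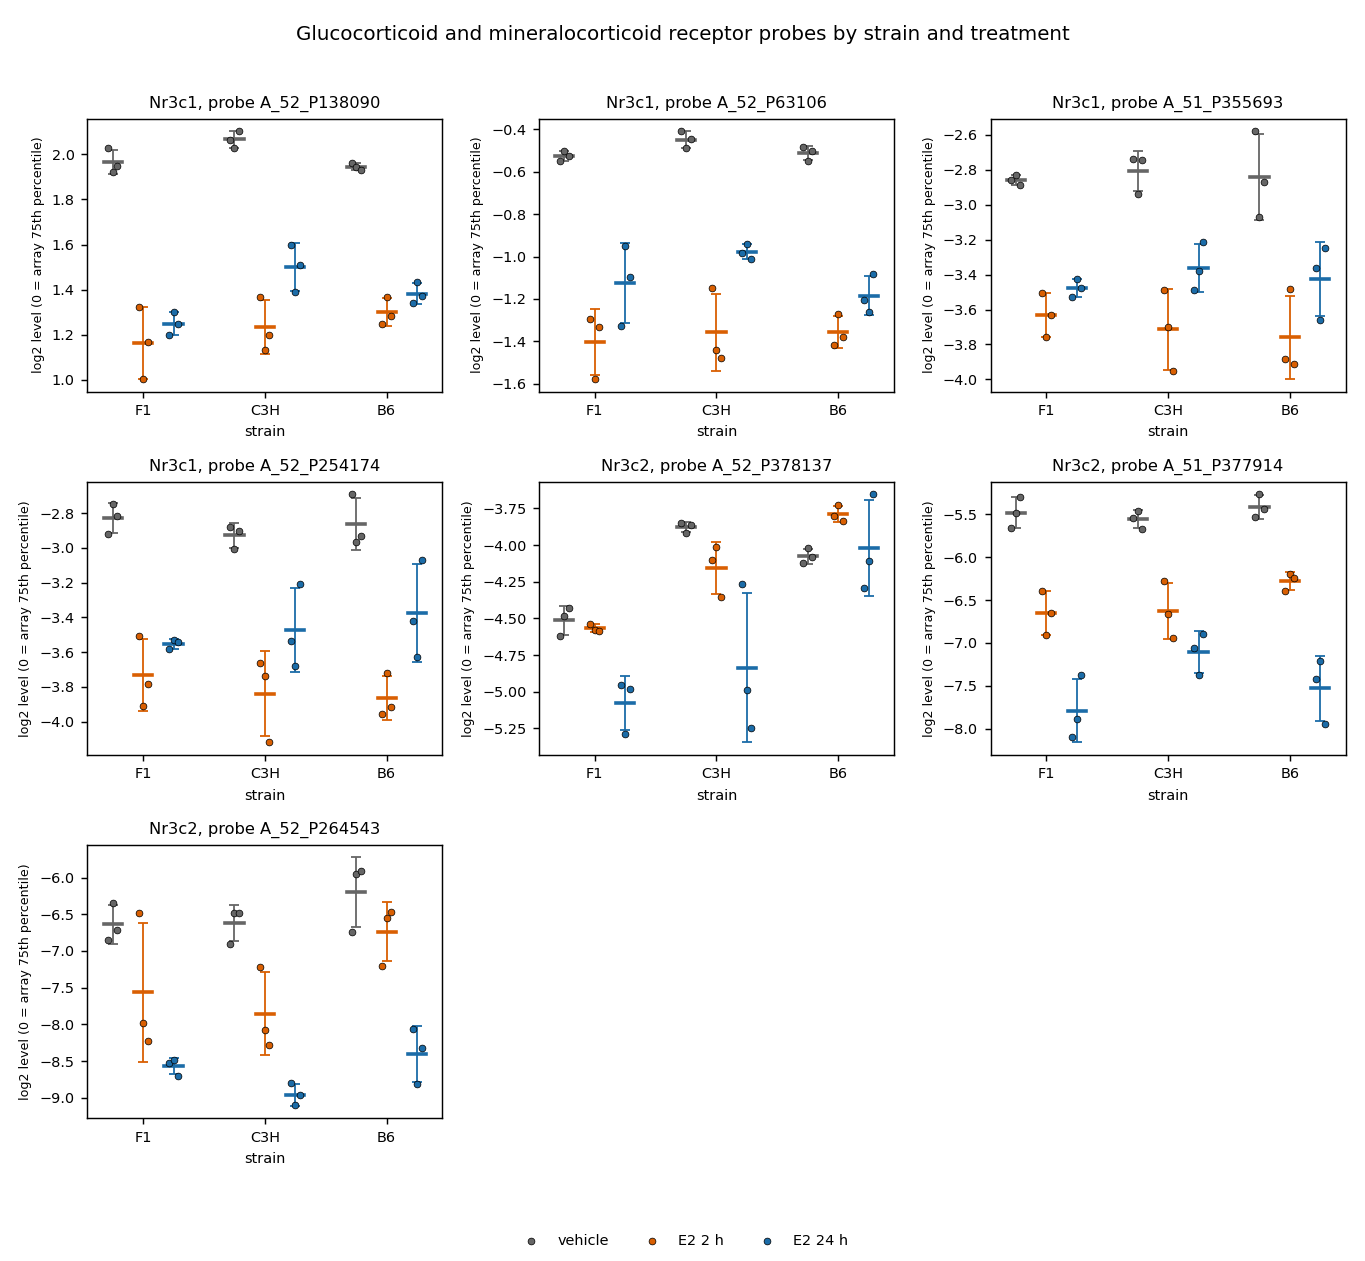
Log2 level (0 is the 75th percentile of the array) of the Nr3c1 and Nr3c2 probes in F1, C3H and B6 uteri, with vehicle in grey, E2 2 h in orange and E2 24 h in blue. Points are single arrays, bars means of 3 and error bars SD. The 4 Nr3c1 probes are lower with E2 at both times in each strain, and the Nr3c2 probes differ from each other.

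The p160 coactivators moved in different directions. Ncoa3 rose, Ncoa1 and Ncoa2 fell at 24 h, and these changes were smaller than those of Greb1, Nrip1 and Pgr at 2 h. The brightest Ncoa3 probe, A_52_P103066, read 0.56, 0.36 and 0.56 with vehicle, 1.05, 1.23 and 1.19 at 2 h and 1.17, 1.26 and 1.06 at 24 h in F1. In C3H uteri Ncoa3 read 0.46, 0.53 and 0.56 with vehicle, 1.31, 1.25 and 1.14 at 2 h and 1.20, 1.00 and 1.14 at 24 h on that probe. In B6 uteri Ncoa3 read 0.87, 0.42 and 0.49 with vehicle, 1.09, 1.08 and 0.99 at 2 h and 1.21, 1.21 and 1.31 at 24 h. All E2 arrays lay above all vehicle arrays at both times, the first B6 vehicle array coming nearest. The change was 0.66 in F1, 0.72 in C3H and 0.46 in B6 at 2 h (SE 0.0953, adjusted p from 1.49e-06 to 0.000322) and 0.67 in F1, 0.60 in C3H and 0.65 in B6 at 24 h (adjusted p from 2.89e-06 to 1.45e-05). Probe A_52_P477759 gave 0.69 in F1, 0.67 in C3H and 0.42 in B6 at 2 h and 0.66 in F1, 0.59 in C3H and 0.46 in B6 at 24 h, all called. The probe across a splice junction, A_51_P454207, passed at 2 h only in F1 (0.38, adjusted p = 0.00128), and at 24 h in F1 (0.54) and B6 (0.38) but not in C3H (0.12, adjusted p = 0.236). At 2 h it responded less than A_52_P103066 by 0.43 averaged over strains (exact permutation p = 0.0005). At 24 h the gap was 0.29 (exact permutation p = 0.00225), and 0.07 (p = 0.296) after quantile normalization.

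Ncoa1 had 1 probe. It read 2.46, 2.53 and 2.63 with vehicle, 2.55, 2.56 and 2.57 at 2 h and 2.13, 2.05 and 2.08 at 24 h in F1. Ncoa1 in C3H was 2.60, 2.69 and 2.58 with vehicle, 2.59, 2.57 and 2.74 at 2 h and 2.36, 2.21 and 2.18 at 24 h. Ncoa1 in B6 was 2.51, 2.66 and 2.69 with vehicle, 2.90, 2.82 and 2.78 at 2 h and 2.29, 2.42 and 2.32 at 24 h. At 24 h all E2 arrays lay below all vehicle arrays, and at 2 h the groups overlapped in F1 and C3H but not in B6. At 2 h only B6 passed, as higher by 0.22 (adjusted p = 0.0084), a call lost without the first B6 vehicle array (0.16, adjusted p = 0.0572) and under quantile normalization (0.14, adjusted p = 0.115). At 24 h Ncoa1 fell in F1, C3H and B6, with changes of -0.45 in F1, -0.37 in C3H and -0.28 in B6 (SE 0.0658, adjusted p from 3.89e-06 to 0.000858). The call in B6 was lost with median centring (-0.04, adjusted p = 0.614), without scaling (-0.21, adjusted p = 0.0842) and with the slide as a block (-0.17, adjusted p = 0.245).

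Ncoa2 fell at 24 h on 2 of its 3 probes in every strain. Probe A_52_P335636 read -1.46, -1.40 and -1.36 with vehicle, -1.60, -1.68 and -1.62 at 2 h and -2.13, -1.96 and -2.16 at 24 h in F1. Ncoa2 in C3H read -1.45, -1.37 and -1.41 with vehicle, -1.63, -1.70 and -1.56 at 2 h and -1.80, -1.92 and -1.95 at 24 h on it. Ncoa2 in B6 read -1.44, -1.36 and -1.42 with vehicle, -1.59, -1.65 and -1.57 at 2 h and -2.14, -2.10 and -2.04 at 24 h. The 9 E2 arrays lay below the 9 vehicle arrays at both times. It fell by 0.68 in F1, 0.48 in C3H and 0.69 in B6 at 24 h (SE 0.0593, adjusted p from 2.03e-09 to 5.07e-07). At 2 h the fall of 0.23 in F1, 0.22 in C3H and 0.20 in B6 was called under the 75th percentile but lost in all 3 strains with median centring and without scaling, where its sign turned in F1 (0.000563). The probe across a splice junction, A_51_P478593, fell at 24 h by 0.60 in F1, 0.52 in C3H and 0.55 in B6 (SE 0.158) and passed nowhere at 2 h. The third probe, A_52_P21971, changed by -0.20 in F1, -0.20 in C3H and -0.22 in B6 at 24 h and passed only in B6 (adjusted p = 0.0356), where the sign turned with median centring (0.02) and quantile normalization (0.03). The response of A_52_P335636 minus that of A_52_P21971 was -0.29 at 2 h and -0.41 at 24 h (exact permutation p = 0.00025 for each).

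Set against each other, the 2 times showed mostly falls. At 24 h relative to 2 h in F1, 1 of 21 probes was higher and 11 lower, against 35.4% and 33.4% of all probes. The counts were 5 and 11 in C3H, against 32.7% and 37.1%, and 3 and 11 in B6, against 33.5% and 35.4%. The lower counts include Nr3c2 A_51_P377914 in all 3 strains. That probe was not well above background on any F1 or B6 array at 24 h. In F1 no bound on its fall from 2 h could be set, and in B6 it was at least 1.51-fold lower. Greb1 fell by 3.21 in F1, 2.89 in C3H and 3.44 in B6 and the middle Nrip1 probe by 2.47 in F1, 2.37 in C3H and 2.39 in B6. The downstream Pgr probe fell by 1.07 in F1, 0.72 in C3H and 0.62 in B6 (adjusted p from 4.7e-10 to 1.34e-06). Ncoa1 fell too, by 0.47 in F1, 0.39 in C3H and 0.49 in B6 (adjusted p from 1.04e-06 to 2.7e-05). The downstream Esr1 probe passed in no strain, and the upstream one was higher only in C3H, by 0.30 (adjusted p = 0.0345). That call was lost with the slide as a block (adjusted p = 0.1004) and without some single arrays, such as the third C3H E2 2 h array (adjusted p = 0.142). All 4 Nr3c1 probes were higher at 24 h than at 2 h in C3H, by 0.27 on the brightest (adjusted p = 0.00311) to 0.38 on A_52_P63106. In F1 only A_52_P63106 passed (0.28, adjusted p = 0.0114), and in B6 A_51_P355693 (0.34, adjusted p = 0.0361) and A_52_P254174 (0.49, adjusted p = 0.00464) did. In C3H A_51_P355693 and A_52_P254174 lost their calls without some single arrays, such as the third C3H E2 2 h array (adjusted p = 0.164 and 0.184). With the slide as a block both lost their calls in C3H (adjusted p = 0.359 and 0.201) and in B6 (adjusted p = 0.358 and 0.141). The F1 call was lost without the second F1 E2 24 h (adjusted p = 0.0873) or E2 2 h (adjusted p = 0.0897) array. For B6 the split became 7 higher and 11 lower with median centring, where the median change of all probes was 0.14 and no share called is given.

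The arrays lay on 7 slides of up to 4, each scanned together, and few slides held 2 of the groups compared. On slide 6, which held 3 F1 E2 2 h arrays and 1 F1 vehicle array, the change was 3.63 for Greb1, 1.90 for the downstream Pgr probe and -0.46 for the downstream Esr1 probe. On slide 1, with 1 B6 E2 2 h array and 3 B6 vehicle arrays, the same probes changed by 4.03, 1.65 and -0.46. All 16 probes called in F1 at 2 h and all 15 called in B6 had the same direction within those slides, as had the 16 called in C3H on slide 4 and the 14 called in B6 on slide 2 for 24 h relative to 2 h. The arrays on these slides also gave the calls, so the shared direction is no separate check of slide effects. With the slide as a block, the downstream Esr1 probe in B6 at 24 h changed by -0.98 (adjusted p = 0.00172), more than 1.5 times its change without the block. In C3H at both times and in F1 at 24 h no slide held both E2 and vehicle, so slide and treatment cannot be told apart there. Nor did one in B6 at 24 h, where the value with the block is reached through the B6 arrays at 2 h on slides 1 and 2.

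Few of these probes differed between strains. Among vehicle groups, 3 of 21 probes differed between strains (limma F test), against 24.2% of all probes. Greb1 was higher than in B6 by 0.50 in F1 (SE 0.0972, adjusted p = 0.00161) and by 0.60 in C3H (adjusted p = 8.27e-05), with levels of -0.96, -0.84 and -0.86 in F1, -0.72, -0.70 and -0.95 in C3H and -1.58, -1.21 and -1.37 in B6. The F1 and C3H arrays lay above all B6 arrays and overlapped each other. The vehicle arrays of B6 were all on slide 1, those of C3H on slide 3 and those of F1 on slides 5 and 6, so strain and slide cannot be told apart among them. The splice-spanning Ncoa3 probe was lower in F1, at -3.18, -3.11 and -2.96, than in C3H (-2.81, -2.65 and -2.85) and B6 (-2.67, -2.72 and -2.73), by -0.31 (adjusted p = 0.0266) and -0.38 (adjusted p = 0.00901). Without the first F1 vehicle array these 2 differences had adjusted p of 0.11 and 0.0516, and the first was also lost without the first (adjusted p = 0.0516) or second (adjusted p = 0.12) C3H or the second F1 (adjusted p = 0.0859) vehicle array. The count of 3 fell to 1 without the first F1 vehicle array. Nr3c2 probe A_52_P378137 was lower in F1 than in C3H by -0.64 (adjusted p = 0.0197), with adjusted p of 0.0503 to 0.0737 when 1 of 4 arrays was left out, the first or the third C3H or the first or the second F1 vehicle array.

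The response at 2 h differed between strains for 0 of 21 probes by the limma F test, against 1.50% of all probes, and 3 had an unadjusted p under 0.05. Pairwise differences between strains ran from -0.57 to 0.46, with 95% intervals reaching -1.09 and 0.94 at the extremes over the 21 probes, while the median width of an interval was 0.570. At 24 h 1 of 21 probes differed, Nr3c2 A_52_P378137 (adjusted p = 0.025), against 13.4% of all probes. Its response in C3H was below that in B6 by -1.02 (SE 0.249, 95% interval -1.54 to -0.50, adjusted p = 0.00868). The C3H arrays at 24 h were spread, with the second and the third, on slide 5, below the first, on slide 4. The third B6 array at 24 h, the highest of its group, was the only one of them on slide 3. On slide 4 the probe changed by -0.11 in C3H at 24 h relative to 2 h, against -0.68 over all arrays. With the slide as a random block the F test gave an adjusted p of 0.0172. The F test lost its call without any 1 of 6 arrays, the third B6 E2 24 h, the third B6 vehicle, the second or the third C3H E2 24 h or the first or the third C3H vehicle array (adjusted p 0.0502 to 0.0703), and without the second F1 E2 24 h array 2 probes were called. For Esr1, Pgr, Greb1, Nrip1 and the coactivators no difference in response between strains passed at either time.

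Across the 9 group means, the probes of other genes most like the members, among 14701 genes, were found by Pearson correlation, as a description of shared time courses. For Greb1 they were Dnajb4 (r = 0.997), Pqlc3 (r = 0.997) and Tmem98 (r = 0.997). For the middle Nrip1 probe they were Coq10b (r = 0.998), Hrh1 (r = 0.998) and Nectin1 (r = 0.998). The downstream Pgr probe was nearest to Mad2l1bp (r = 0.992), Chtop (r = 0.992) and Sh3glb1 (r = 0.991). The brightest Nr3c1 probe was nearest to Kctd18 (r = 0.995) and Inpp1 (r = 0.990). The downstream Esr1 probe had Fryl (r = 0.993), Hlf (r = 0.990) and Zfp219 (r = 0.989) as its nearest, and the upstream one Dock1 (r = 0.914), Cr1l (r = 0.896) and Dedd (r = 0.895), so no gene was shared by the pair. Ncoa3 was nearest to Tmem248 (r = 0.995), Gspt1 (r = 0.994) and Hs2st1 (r = 0.992), Ncoa2 to Mbtd1 (r = 0.996), Sema6a (r = 0.996) and Abca1 (r = 0.995) and Ncoa1 to Gfod1 (r = 0.992), Trappc8 (r = 0.982) and Tcf7l1 (r = 0.982). Nr3c2 A_52_P378137 was nearest to Setdb2 (r = 0.988), Otos (r = 0.978) and Ecel1 (r = 0.967). The 9 means share 3 treatments, and no p is given.

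Other genes of the same pathway were followed through 1 probe each, and counted where they passed in the same direction in all 3 strains. Over all 21866 genes, 18.3% were higher and 27% lower at 2 h, and 22.9% were higher and 29.0% lower at 24 h. Among receptor chaperones, the HSP90 system that keeps steroid receptors ready for hormone, 8 of 15 rose at 2 h and 11 of 15 at 24 h, and 0 fell in all 3 strains at either time. Within single strains, 3 of 15 were lower in B6 and 1 in C3H at 2 h, and 1 in C3H at 24 h. Their median change was 0.20 at 2 h and 0.67 at 24 h, against -0.10 and -0.05 for all genes. Fkbp4, a cochaperone of the progesterone receptor, rose by 1.20 in F1, 0.99 in C3H and 1.20 in B6 (SE 0.103) at 2 h. Hsp90ab1, an HSP90 itself, rose by 0.88 in F1, 0.81 in C3H and 0.84 in B6 (SE 0.0949) at 24 h. Fkbp5, a cochaperone that is also a glucocorticoid target, rose by 1.22 in F1, 1.62 in C3H and 0.63 in B6 (SE 0.184) at 2 h.

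Among 16 other steroid and related receptors, 1 rose and 8 fell at 2 h, and again 1 rose and 8 fell at 24 h, with medians of -0.42 and -0.28. Thra, a thyroid hormone receptor, changed by -2.35 in F1, -2.34 in C3H and -2.08 in B6 (SE 0.099) at 2 h. Nr2f2, an orphan receptor of endometrial stroma that is also among the stroma markers, changed by -2.02 in F1, -2.28 in C3H and -2.07 in B6 (SE 0.0938). Rara, a retinoic acid receptor, rose by 1.57 in F1, 1.66 in C3H and 1.34 in B6 (SE 0.143) at 2 h. Vdr, the vitamin D receptor, changed by -1.09 in F1, -0.92 in C3H and -1.67 in B6 (SE 0.143) at 24 h.

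Of 25 other coactivators 9 rose and 3 fell at 2 h, and 6 rose and 9 fell at 24 h. Ppargc1a, a coactivator of mitochondrial genes, changed by -2.47 in F1, -2.64 in C3H and -2.04 in B6 (SE 0.186) at 2 h. Ddx5, an RNA helicase, rose by 0.67 in F1, 0.65 in C3H and 0.67 in B6 (SE 0.0715). Prmt1, an arginine methyltransferase, rose by 1.03 in F1, 0.69 in C3H and 1.28 in B6 (SE 0.0937) at 24 h. Of 20 other corepressors 5 rose and 4 fell at 2 h, and 6 rose and 5 fell at 24 h. Brca1, better known for DNA repair, rose by 2.73 in F1, 1.84 in C3H and 2.69 in B6 (SE 0.128) at 24 h. Of 8 partner transcription factors 2 rose and 4 fell at 2 h, and 1 rose and 5 fell at 24 h, where Tfap2c changed by -1.76 in F1, -1.67 in C3H and -1.34 in B6 (SE 0.133).

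Targets of the other receptors are set beside the receptors themselves. Of 10 genes known as progesterone receptor targets 2 rose and 4 fell at 2 h, and 0 rose and 4 fell at 24 h, while Pgr RNA was higher at both times. Cebpb, a transcription factor of decidualisation, rose by 3.30 in F1, 3.34 in C3H and 3.02 in B6 (SE 0.16) at 2 h. Ihh, the hedgehog ligand of uterine epithelium, rose by 1.05 in F1, 0.73 in C3H and 1.31 in B6 (SE 0.232) at 2 h and changed by -1.90 in F1, -1.60 in C3H and -2.19 in B6 (SE 0.232) at 24 h. Hoxa10, a stromal transcription factor and also a stroma marker here, changed by -1.78 in F1, -1.88 in C3H and -1.64 in B6 (SE 0.0694) at 2 h. Of 13 glucocorticoid and mineralocorticoid receptor targets 7 rose and 2 fell at 2 h, and 3 rose and 5 fell at 24 h, while Nr3c1 RNA was lower at both times. Sgk1, a kinase that regulates sodium transport, rose by 2.36 in F1, 2.56 in C3H and 2.11 in B6 (SE 0.142) at 2 h. Scnn1a, a subunit of the epithelial sodium channel, rose by 1.78 in F1, 2.56 in C3H and 2.02 in B6 (SE 0.119) at 2 h and changed by -1.43 in F1, -0.74 in C3H and -1.22 in B6 (SE 0.119) at 24 h. Tsc22d3, a glucocorticoid-induced repressor, changed by -1.26 in F1, -0.97 in C3H and -1.57 in B6 (SE 0.127) at 24 h. Several of these genes also respond to E2 by other routes, and no receptor's activity was measured.

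Markers of cell types moved with time as well. Epithelial markers were higher at 24 h for 9 of 10 genes and lower for 1 in all 3 strains, with mean levels of 3.73 to 4.21 at 24 h, against 2.64 to 2.94 with vehicle. Myometrial markers were higher for 5 of 7 at 24 h and lower for 0, with means of 5.72 to 6.06 at 24 h, against 5.04 to 5.53 with vehicle. Stroma markers at 24 h were higher for 3 and lower for 4 of 9. Squamous epithelium markers were higher for 3 of 4 in F1, 1 of 4 in C3H and 3 of 4 in B6 at 24 h, with median changes of 2.68, 1.78 and 3.90. Adipose markers were lower for 5 of 5 in F1, 0 of 5 in C3H and 1 of 5 in B6, with median changes of -2.44, 0.35 and -1.86. Of 8 ovary markers 3 were lower in all 3 strains at 24 h. Endothelial markers gave 0.37 to 0.77 at 24 h, against 0.76 to 0.97 with vehicle. The part of these shifts in the changes of Ncoa1, Ncoa2, Ncoa3 and the downstream Esr1 probe at 24 h was not tested.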

How the data were processed

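RNA was measured on 27 Agilent 1-colour whole mouse genome arrays (45018 spots, 1639 of them controls) of uterine RNA, in 9 groups of 3. Linear spot intensity comes from the scanner files as deposited. Background subtraction and spatial detrending gave the processed intensity, per the file headers, in Agilent Feature Extraction, which the submitters' processing notes give as version 9.5, and 4286 to 6886 low spots per array hold surrogate values. The series' value table held the same intensity on all 27 arrays. The number of arrays limits the precision.

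Control and outlier spots (48 to 117 per array) were left out, and spots of a probe were averaged as linear intensity. Then log2 was taken, and the log2 of the array's 75th percentile was subtracted. A probe was tested if every array of 1 or more groups showed it well above background. Deposited gene names were updated through RefSeq accessions (22951 probes) or symbols. limma 3.58.1 in R 4.3.3 was fitted with 9 group means (18 residual degrees of freedom), with Benjamini-Hochberg adjustment over 32901 probes and a threshold of 0.05. Strains were compared by F tests. Responses of probes of 1 gene were compared with an exact permutation test, two-sided, of treatment within strain. Lists used the brightest probe per gene, and likeness is Pearson's r over group means for the brightest probe of each member and for both Esr1 probes. A few genes of these lists are not reported here by name. The members, lists and tests were chosen with earlier results of these data known. Promoter letters come from RefSeq (GRCm38.p6) and probe letters from the scanner files (mm7). Alternatives were another background correction, normalization or filter, slide or replicate as a block, and leaving out arrays. Scripts ran in Python 3.11.15 and were tested on simulated data.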

Additional observations from a re-analysis of the deposited data

Results flagged for a closer look

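The response of the Nr3c2 probe A_52_P378137 at 24 h differed between strains by the limma F test (adjusted p = 0.025). It was -0.56 in F1 and -0.96 in C3H, against 0.06 in B6 (SE 0.176). It stands out because it was the only 1 of the 21 probes whose response to E2 passed a test of the strain difference. The probe was well above background on all 27 arrays but dim. On slide 4, which held 1 C3H E2 24 h array and 3 C3H E2 2 h arrays, it changed by -0.11 at 24 h relative to 2 h, against -0.68 over all C3H arrays, and the other 2 C3H E2 24 h arrays were on slide 5. With the slide as a random block the F test gave an adjusted p of 0.0172, and no slide held both C3H E2 and vehicle arrays.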

How the results depend on the processing

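With 1 probe per gene, 7 of 9 genes were called at 2 h and 8 of 9 at 24 h in each strain. For all 21866 genes in the full fit at 2 h, 23.6% were higher and 35.5% lower in F1. These shares were 24.8% and 35.4% in C3H and 23.1% and 33.1% in B6. At 24 h they were 31.8% and 36.7% in F1, 27% and 40% in C3H and 30.8% and 37.1% in B6. For 24 h relative to 2 h 6 of 9 genes were called in F1, 7 in C3H and 5 in B6, because fewer probes were counted. In the full fit 35.4% of all probes were higher and 33.4% lower in F1 for those times. The shares were 32.7% and 37.1% in C3H and 33.5% and 35.4% in B6. No share over all genes is given for 24 h relative to 2 h, and no share for the counts in other refits. With the slide as a fixed block, 9 probes were called in C3H for 24 h relative to 2 h. For the strain difference of the response, 1 probe was called at 2 h when only the groups named were fitted (0 in the full fit), and at 24 h 0 with normexp, 2 with quantile normalization and 0 with only the groups named (1 in the full fit). Leaving out 1 array at a time gave 15 to 17 calls in F1, 15 in C3H and 14 to 16 in B6 at 2 h, 17 to 18 in each strain at 24 h, and 10 to 12, 12 to 14 and 13 to 15 for 24 h relative to 2 h. It gave 1 to 3 strain differences with vehicle, 0 in response at 2 h and 0 to 2 at 24 h. The sign of a called value turned for Ncoa2 A_52_P335636 in F1 at 2 h without scaling (0.000563), for Nrip1 A_51_P152747 in B6 at 24 h with quantile normalization (-0.0207), and for Ncoa2 A_52_P21971 in B6 at 24 h with quantile normalization (0.0271) and median centring (0.0156). Between probes of a gene, the difference turned for Pgr at 24 h with normexp (0.59). It turned at 2 h for Nr3c1 A_52_P138090 minus A_51_P355693 (normexp, -0.14), A_52_P138090 minus A_52_P254174 (normexp -0.0434, quantile -0.00317) and A_52_P63106 minus A_52_P254174 (normexp, -0.12). Of 3113 probe and contrast values recomputed, 2930 stayed on the same side of the threshold, 131 lost the call and 48 gained it. The sign of 4 called values turned. The 2930 include 49 values that were called in neither fit and turned in sign. The cause was not tested. Normexp was run without blemished spots (8 arrays, at most 17 spots each), a setting chosen after seeing the data, since on all spots it could not be fitted. Slide blocks could not be fitted for C3H against vehicle or for F1 at 24 h.

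Replicate numbers did not pair the samples (median correlation of deviations 0.000945 for equal and 0.00169 for different numbers within a strain). With the replicate block, calls numbered 16 in F1, 15 in C3H and 15 in B6 at 2 h and 18, 17 and 18 at 24 h, and the strain differences 3 with vehicle, 0 at 2 h and 1 at 24 h. For 24 h relative to 2 h they numbered 12, 15 and 14. Dim probes limit the sizes given for Pgr A_52_P413840 and for Nr3c2.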
